A study of Mus musculus with 2 samples.

Results

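The genes described here are 36 genes of G2 and mitosis, followed across the cell classes of the mouse testis. They were chosen by symbol from a list, and all 36 are among the 32285 genes counted in each library. By role they are 6 cyclins, CDK1 and its partners, 6 mitotic kinases and checkpoint proteins, 2 partners of the anaphase promoting complex, 2 chromosome proteins, 8 proteins of the centromere, kinetochore and passenger complex, 10 spindle proteins and motors, and 2 cytokinesis proteins. Dissociated testes of male C57BL/6 mice aged 13 days gave 2 single-cell libraries, 1 for each genotype. Cells of the libraries are called control and knockout cells below, whatever their own alleles. Mice of the control group carried Psma7 F/+, a floxed and a wild-type allele, and their label gives no Cre. Mice of the knockout group carried Psma7 F/-;Stra8-Cre KI/+, a floxed and a deleted allele with a Cre that is driven from the Stra8 locus, whose expression is known from premeiotic germ cells. The deleted allele is in all cells of the knockout mice, somatic cells included, and the floxed allele is common to both groups. The series compares the groups to ask what the constitutive 20S proteasome, of which PSMA7 is a subunit, does in spermatogonia.

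Before a cell divides, cyclins A and B activate CDK1, and a wave of kinases, motors and kinetochore proteins builds the spindle and attaches chromosomes to it. The anaphase promoting complex then marks cyclin B and securin for destruction by the proteasome, which lets the chromatids part and the cell leave mitosis. Most of these genes are transcribed together late in the cell cycle, from promoters known to carry CCAAT boxes, bound by NF-Y, and the cell cycle genes homology region (CHR), bound by complexes built on MuvB. In the young testis spermatogonia divide by mitosis, early meiotic germ cells do not, and Sertoli cells are leaving the cell cycle.

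The control library held 146528736 unique molecular identifiers (UMIs, counted transcript molecules) and gave 11232 called cells with a median of 8372.5 UMIs. The knockout library held 112746953 UMIs and gave 10864 called cells with a median of 5482 UMIs. A cell had at least 1000 UMIs, at least 500 genes and at most 20% mitochondrial UMIs, and 29 barcodes of called cells were shared by the libraries. Psma7, the check of the labels, had a level of 229 CPM (a gene's share of the UMIs, where 10000 CPM are 1% of them) over all called control cells and 97.6 over those of the knockout library, 220 and 82.8 in germ cells, and 239 and 98.7 in somatic cells. Which exons are deleted is not stated in the labels, so this 3' count may include transcripts of the deleted allele. The labels do not give the number of animals behind a library. With 1 library for each genotype there is no replicate error and no test, and the 95% intervals below cover counting error only. Cells were clustered without the 36 genes and without other cell cycle genes, and a class is named for its resemblance to a cell type by marker genes.

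The promoters of the members show what they share in sequence. RefSeq promoters on build GRCm38.p6 were found for 30 of the 36 genes. In the 250 bases before the start, a CCAAT box (the letters CCAAT on either strand) stood in 23 of the 30 promoters (76.7%), against 37.5% of 27025 genes with a promoter in the table. At least 2 such boxes stood in 17 promoters (56.7%, against 11.5%). A CHR word (TTTGAA or TTCGAA on either strand) stood in 11 promoters (36.7%, against 19.6%). Both motifs stood in 10 promoters (33.3%, against 7.93%). Among 90 promoters of other G2 and mitosis genes, 60.0% held a CCAAT box and 40% a CHR word. These are letter matches, not binding sites, and a CHR word and a CCAAT box can share bases at their ends. The stretches below are the 140 bases before the start, 5′ to 3′ on the gene's strand, with both motifs in capitals. They were printed for genes whose values are described below, from cyclin B2 with 3 boxes to Knl1, a kinetochore gene with neither motif in its 250 bases.
Ccnb2: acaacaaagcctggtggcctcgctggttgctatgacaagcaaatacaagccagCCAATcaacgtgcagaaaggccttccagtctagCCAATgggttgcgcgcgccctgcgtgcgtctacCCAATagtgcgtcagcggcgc
Cdk1: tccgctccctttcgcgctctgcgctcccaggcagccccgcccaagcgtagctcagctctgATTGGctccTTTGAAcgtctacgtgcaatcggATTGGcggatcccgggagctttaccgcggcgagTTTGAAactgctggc
Cdc20: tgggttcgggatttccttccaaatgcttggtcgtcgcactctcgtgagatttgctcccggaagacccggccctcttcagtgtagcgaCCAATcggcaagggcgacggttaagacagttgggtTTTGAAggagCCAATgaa
Ube2c: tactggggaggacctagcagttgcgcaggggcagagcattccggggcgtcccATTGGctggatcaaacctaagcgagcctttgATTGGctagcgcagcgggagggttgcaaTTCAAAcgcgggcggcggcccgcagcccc
Top2a: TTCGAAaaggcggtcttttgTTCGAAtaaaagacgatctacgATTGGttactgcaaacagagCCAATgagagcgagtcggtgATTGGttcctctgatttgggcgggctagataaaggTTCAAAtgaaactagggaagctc
Hmmr: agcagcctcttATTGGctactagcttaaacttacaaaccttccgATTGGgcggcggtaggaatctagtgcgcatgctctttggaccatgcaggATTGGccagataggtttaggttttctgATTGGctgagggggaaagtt
Knl1: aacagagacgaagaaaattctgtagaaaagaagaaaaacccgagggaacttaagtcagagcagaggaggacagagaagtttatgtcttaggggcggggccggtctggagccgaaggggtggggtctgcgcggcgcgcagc
Their positions are Ccnb2 at chr9:70421555-70421694 (minus strand), Cdk1 at chr10:69352913-69353052 (minus strand), Cdc20 at chr4:118437344-118437483 (minus strand), Ube2c at chr2:164769789-164769928 (plus strand), Top2a at chr11:99024190-99024329 (minus strand), Hmmr at chr11:40733438-40733577 (minus strand) and Knl1 at chr2:119046979-119047118 (plus strand). The 36 genes lie on 15 chromosomes, with 8 of them on chromosome 2.

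Germ cells carried the highest summed level of the 36 genes, and within the control library the level differed widely between the named classes with at least 50 cells in a library. Germ cells without a clear stage, germ cells with markers of other classes and unnamed cells are left out here. Summed UMIs of the members, as CPM of all UMIs of a class, were 5653 in differentiating spermatogonia-like cells of the control (interval 5625 to 5682), 4636 in early meiotic germ cell-like cells and 3244 in undifferentiated spermatogonia-like cells. Somatic classes of that size in the control ranged from 484 in Sertoli-like cells, the nurse cells of the tubule, through 796 in interstitial stromal-like, 1036 in peritubular myoid-like, 1436 in Leydig-like and 1580 in endothelial-like cells to 2055 in macrophage-like cells. Neighbours in that order differed by more than their counting intervals. Smaller classes were the pericyte-like cells, 42 in the control with a level of 2214 CPM (2076 to 2360), and the rete or mesothelial epithelium-like cells, 16 with 1612 CPM (1459 to 1777), and they are not compared below.

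In the knockout library the highest level was again that of differentiating spermatogonia-like cells, at 5016 CPM (4898 to 5136), followed by undifferentiated spermatogonia-like cells at 4071 (4007 to 4135). Sertoli-like cells stood at 1172 CPM there, above peritubular myoid-like cells at 943 and interstitial stromal-like cells at 1055. The order of these 3 classes was thus not that of the control. Of the early meiotic class the knockout library held 1 cell, against 1064 in the control, so no level is given for it.

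**Figure D1:**
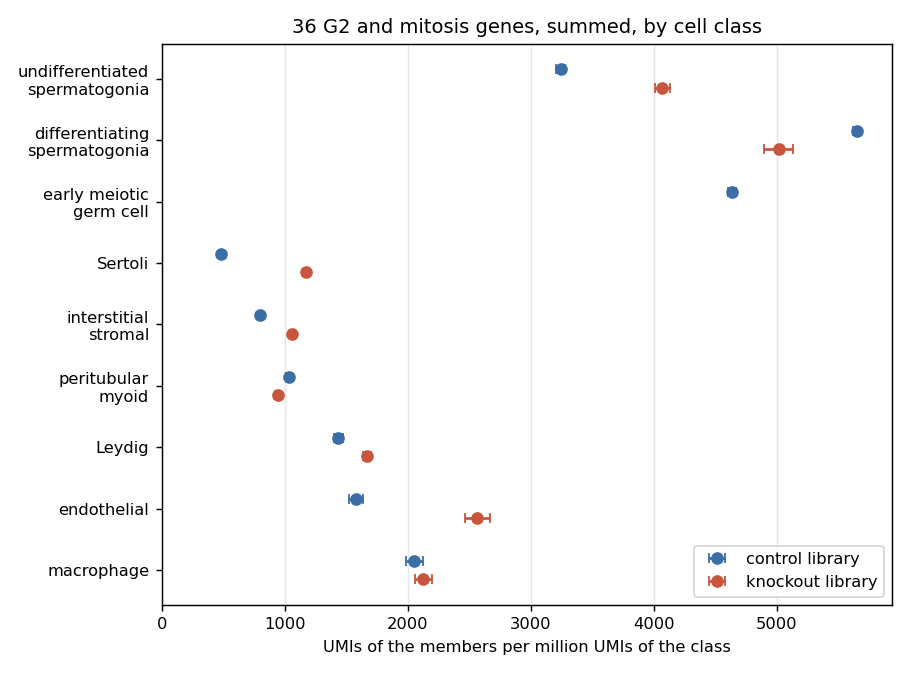
Summed UMIs of the 36 genes as CPM of all UMIs of the class (x axis, 10000 CPM are 1% of the UMIs) for each cell class (y axis), with 1 point per library and exact 95% Poisson intervals for counting error. The Sertoli points stand at 484 in the control library and 1172 in the knockout one, and the early meiotic class has a control point only.

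The members' level was highest in the knockout library relative to the control in Sertoli-like cells, 3826 cells in the control library and 6579 in the knockout one. Summed over the 36 genes it was 2.42-fold higher in knockout cells, with a log2 ratio of 1.28 (1.25 to 1.30). All 36 genes were higher, and 33 of them by at least 1.5-fold. Over all 15693 genes measured in Sertoli-like cells, 17.2% were at least 1.5-fold higher and 7.93% at least 1.5-fold lower in the knockout library. The median log2 ratio was 1.63 over the members and 0.04 over all genes measured. A gene counts as measured with at least 20 UMIs expected in each library at the pooled level.

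This value depended on which cells the class held. With each library clustered alone, the summed log2 ratio was 0.37 and the members at least 1.5-fold higher were 13. Under that alternative 228 cells joined the Sertoli-like class of the control, 217 of them from germ cell clusters that also held markers of other classes and that were kept out of the named classes. Those 228 cells had a median of 19954 UMIs and held germ cell markers at 3001 CPM, against 251 CPM in the 3823 control cells in the class under both settings. Their members stood at 3109 CPM, and the members in the 3823 cells at 484.

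Among the cyclins and their partners in Sertoli-like cells, Ccnb2 (cyclin B2) stood at 6.21 CPM in control and 24.2 in knockout cells (log2 ratio 1.96, 1.73 to 2.20). Ccnb1, which encodes the main mitotic cyclin, stood at 5.75 and 16.7 CPM, a log2 ratio of 1.54. Cdc25c, the phosphatase that switches CDK1 on, stood at 1.54 and 7.94 CPM, from 44 and 314 UMIs, a log2 ratio of 2.35 (1.90 to 2.85). The kinase subunit itself differed less. Cdk1 stood at 36.6 CPM in control and 64.8 in knockout cells (0.82), and Cks2, a small subunit that binds CDK1, at 97.3 and 141 (0.53, 0.47 to 0.60).

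Of the kinases and checkpoint genes, Plk1, a kinase of mitotic entry and spindle poles, stood at 1.97 CPM in control and 8.19 in knockout cells. Aurkb, the kinase of the passenger complex, stood at 2.91 and 10.5 CPM. Their log2 ratios were 2.05 and 1.84. Bub1, a kinetochore checkpoint kinase, had the second lowest ratio of the 36 genes, at 7.19 and 9.83 CPM (0.45, 0.20 to 0.70).

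Ube2c encodes the ubiquitin conjugating enzyme that works with the anaphase promoting complex. It stood at 10.3 CPM in control and 58.5 CPM in knockout Sertoli-like cells, from 294 and 2313 UMIs, a log2 ratio of 2.50 (2.33 to 2.68). Cdc20, the complex's mitotic activator, stood at 9.40 and 21.4 CPM (1.19). Both genes have the CHR word and at least 2 CCAAT boxes in the stretches shown above.

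Chromosome and kinetochore genes held some of the highest ratios. Mki67, the chromosome surface protein known as Ki-67, stood at 4.74 CPM in control and 30.3 in knockout cells (log2 ratio 2.67, 2.42 to 2.94). Top2a, which untangles sister chromatids, stood at 23.5 and 84.7 CPM (1.85). Knl1, the scaffold that recruits the checkpoint to the kinetochore, stood at 3.93 and 26.0 CPM and had the highest ratio of all, 2.72 (2.45 to 3.02). Knl1 had neither motif and Mki67 and Top2a had both, so genes with and without them were among those with high ratios. Cenpf, a kinetochore protein, stood at 15.9 and 47.5 CPM (1.57), and Cenpa, the centromeric histone, at 12.4 and 38.1 (1.62).

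Spindle genes ranged from the lowest ratio of the 36 genes to 2.71. Kif4, a chromosome motor, stood at 2.03 CPM in control and 13.4 in knockout cells (log2 ratio 2.71). Hmmr, a microtubule binding protein, stood at 2.60 and 16.5 CPM, a log2 ratio of 2.66. Kif23, a motor of the central spindle, had the lowest ratio of the 36 genes, 0.43 (0.35 to 0.50), at 75.1 and 101 CPM, while Prc1, which bundles microtubules in the central spindle, stood at 21.7 and 76.9 CPM (1.82). Of the cytokinesis genes, Anln stood at 9.93 and 21.0 CPM (1.08) and Ect2, the activator of RhoA at the cleavage plane, at 12.1 and 40.6 (1.75).

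**Figure D2:**
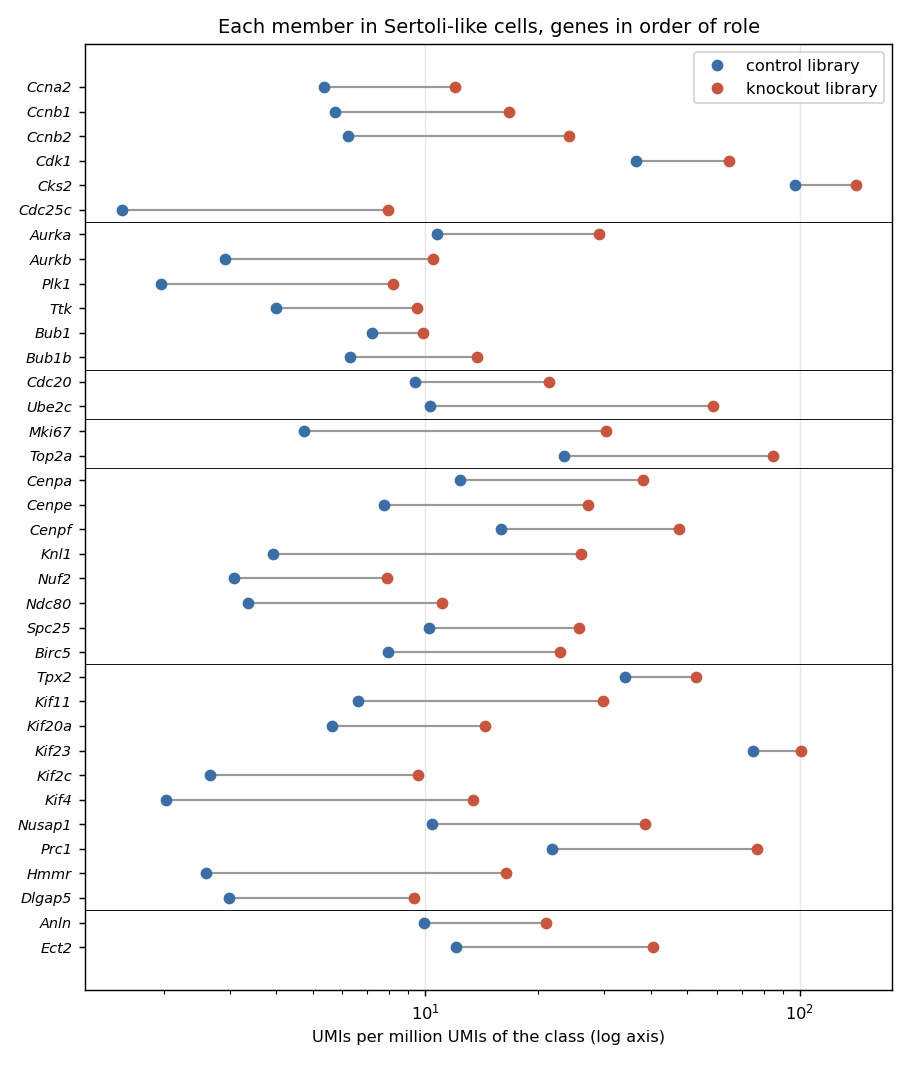
Each of the 36 genes in Sertoli-like cells, in order of role with lines between roles, with its level in CPM of the class on a log axis in the control and the knockout library. The knockout point lies to the right of the control point for all 36 genes, by least for Kif23 (75.1 and 101) and Bub1 (7.19 and 9.83).

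Many genes of the same process that are not among the 36 passed 1.5-fold as well. Of 110 other G2 and mitosis genes, all measured in Sertoli-like cells, 58 were at least 1.5-fold higher (beside 17.2% of all genes measured) and 0 at least 1.5-fold lower (beside 7.93%) in the knockout library, with a median log2 ratio of 0.72. Depdc1a, Iqgap3 and Pimreg had the highest ratios, with Depdc1a at 1.12 CPM in control and 10.1 in knockout cells (3.15) and Iqgap3 at 1.79 and 14.5. The lowest were Rbl2, a pocket protein of the complex that represses cell cycle genes (47.3 and 34.4 CPM, -0.46), Ckap5 (-0.43) and Anapc1 (-0.38). The replication licensing genes Mcm2 to Mcm7, summed, stood at 98.2 CPM in control and 101 in knockout cells (log2 ratio 0.04, -0.03 to 0.11).

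Cells with many members at once were more frequent among knockout Sertoli-like cells at matched depth. Since a library's depth sets how many genes a cell shows, cells were thinned to 2000 UMIs, leaving out 264 shallower cells from the control and 575 from the knockout. After thinning, at least 5 members were detected in 24 of 3562 cells from the control (0.674%, interval 0.432 to 1.00) and in 387 of 6004 cells from the knockout (6.45%, 5.84 to 7.1). The 387 cells held the members at 7793 CPM and the 24 cells at 4215 CPM. Without thinning, at least 10 members were detected in 78 control cells (2.04%), with a median of 24351 UMIs and members at 1112 CPM. In the knockout library such cells were 420 (6.38%), with a median of 7752 UMIs and members at 5572 CPM. These 420 cells held 69.4% of all member UMIs of the class, and the 78 control cells 19.1%.

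Single members were split by how many others their cell held. In the knockout library Mki67 stood at 57.4 CPM in Sertoli-like cells with at least 3 other members and at 3.72 CPM in those with none, and 95.5% of its UMIs lay in the former. In the control those levels were 6.11 and 1.40 CPM. Ube2c stood at 110 and 6.59 CPM in the knockout library and at 11.4 and 12.4 CPM in the control. Top2a stood at 156 and 11.6 CPM in the knockout library and at 28.6 and 16.7 CPM in the control. Cks2, whose ratio was low, stood at 205 and 85.9 CPM in knockout cells and at 102 and 90.5 CPM in control cells. Kif23 stood at 138 and 61.6 CPM in knockout cells and at 76.4 and 71.9 CPM in control cells. This split uses unthinned cells, and which cells have 3 other members depends on their depth and on the members' level, so these values describe the cells and are no test of where the difference lies.

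A lower cut-off gave another order, which the depth of the cells can set. Unthinned, at least 3 members were detected in 38.0% of Sertoli-like cells in the control library (1454 cells, interval 36.5 to 39.6) and in 29.1% in the knockout one (1917 cells, 28.0 to 30.3), at median depths of 5067 and 4109 UMIs. Thinned to 2000 UMIs the shares were 6.57% (5.78 to 7.43) and 11.0% (10.2 to 11.8). The unthinned order goes against the summed levels and is not read as a difference. Many cells lay near the cut-off, with 887 cells at 2 members and 586 at 3 in the control library, and 1357 and 724 in the knockout one. Barcodes with 10 to 100 UMIs, which hold free RNA, carried the members at 2865 CPM in the control library (2765 to 2967) and 1586 in the knockout one (1526 to 1647). The germ cell marker that was lowest in Sertoli-like cells relative to free RNA bounds the free share of their UMIs at 4.94% in the control library and 6.98% in the knockout one, which would bring 142 and 111 CPM of the members. That marker was the lowest of 9 in the control library and of 6 in the knockout one. The 10 germ cell markers summed give a looser bound, 10.4% and 38.4%, which would bring 299 and 609 CPM.

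**Figure D3:**
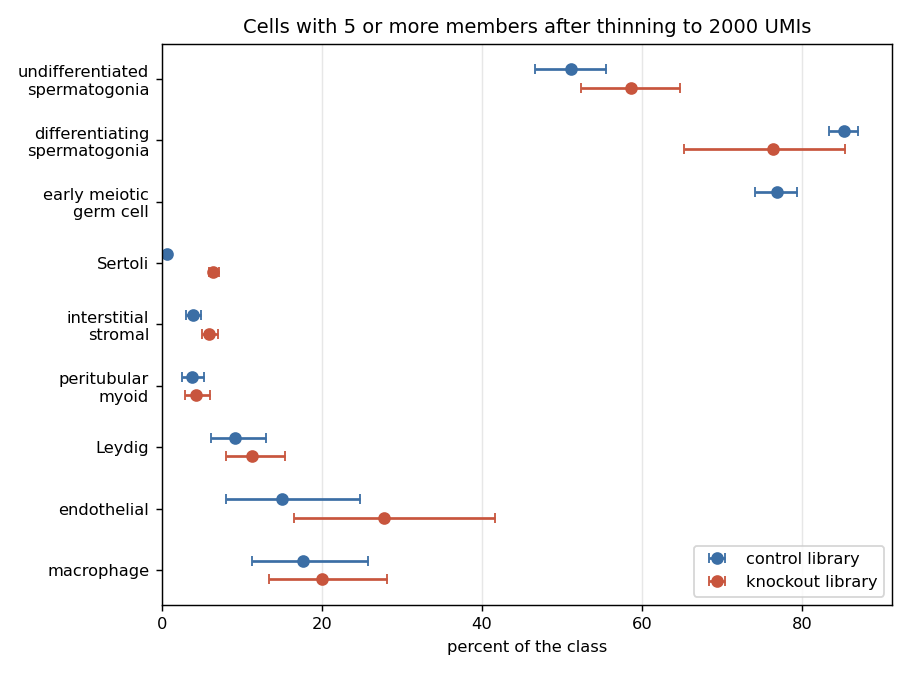
Percent of each class with at least 5 of the 36 genes detected after each cell was thinned to 2000 UMIs (x axis), by cell class (y axis) and library, with exact 95% Clopper-Pearson intervals for counting error. Sertoli-like cells stand at 0.674% in the control library and 6.45% in the knockout one, and outside Sertoli-like and interstitial stromal-like cells the intervals of the libraries overlap in each class with a point for both.

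Other measures moved with the libraries in this class. All 10 germ cell markers were detected in both, with summed levels of 251 CPM in control and 105 in knockout cells. The 16 Sertoli markers summed to 10328 and 11379 CPM, the 9 interstitial stromal markers to 101 and 188 (all 9 higher in the knockout library), and the 6 erythroid markers to 4.56 and 54.9. Median mitochondrial shares were 9.14% and 10.2%. The part of these in the result was not tested. Most Sertoli-like cells of the control lay in clusters 6, 8 and 12, and most of the knockout library in clusters 0, 4, 5 and 9. In each of the 6 Sertoli-like clusters with at least 50 cells from both libraries the members' level was higher in the knockout library. Cluster 15, with 251 and 369 cells and the most UMIs per cell, had 470 and 1421 CPM, and cluster 4, with 120 and 1137 cells, had 817 and 910 CPM, the smallest difference.

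In undifferentiated spermatogonia-like cells, the class that includes the stem cells, the members were moderately higher in the knockout library. There were 527 cells in the control library and 261 in the knockout one. The summed log2 ratio was 0.33 (0.30 to 0.36), a 1.25-fold higher level. Of the 36 genes 33 were higher, but only 5 by at least 1.5-fold (13.9%), beside 11.9% of 12675 genes measured, and 0 were at least 1.5-fold lower, beside 7.95%. The median log2 ratio was 0.35 over the members and 0.04 over all genes.

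The 5 genes were Ccnb2, Nusap1, Spc25, Prc1 and Mki67. Ccnb2 stood at 43.0 CPM in control and 82.2 in knockout cells (0.94, 0.71 to 1.16). Nusap1, which bundles spindle microtubules near chromosomes, stood at 57.3 and 106 CPM (0.89, 0.70 to 1.08). Spc25, a subunit of the NDC80 complex that holds microtubules at the kinetochore, stood at 61.4 and 107 CPM (0.81). Its partners in that complex differed less, with Ndc80 at 76.3 and 86.9 CPM (0.19) and Nuf2 at 20.5 and 19.1 (-0.10, -0.52 to 0.30). The lowest ratio was that of Aurkb, at 43.9 and 36.9 CPM (-0.25, -0.54 to 0.03), whose interval includes 0.

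Ratios of the members with the most UMIs ranged from near 0 to past 1.5-fold. Cenpf stood at 460 CPM in control and 489 in knockout cells (0.09), and Cks2 at 255 and 258 (0.01, -0.10 to 0.12). Top2a stood at 195 and 260 CPM (0.41), Cenpa at 166 and 212 (0.35), Kif23 at 91.9 and 119 (0.38) and Prc1 at 95.4 and 160 (0.75). Of 109 measured genes among the 110 other G2 and mitosis genes, 9 were at least 1.5-fold higher (beside 11.9% of all genes measured) and 0 lower (beside 7.95%). Their median log2 ratio was 0.21. Kifc1, a spindle motor, had the highest ratio, at 40.2 and 79.9 CPM (0.99), and Anapc2, a subunit of the anaphase promoting complex, the lowest, at 48.7 and 35.6 (-0.45).

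The shares of cells with members in this class gave no clear order at matched depth. After thinning to 2000 UMIs, at least 5 members were detected in 51.1% of 511 cells in the control library (46.6 to 55.5) and 58.6% of 256 in the knockout one (52.3 to 64.7), and these intervals overlap. The class was made of cluster g0, with 332 control and 252 knockout cells, and cluster g11, with 195 and 9. In cluster g0 alone the log2 ratio was 0.27, at 3431 and 4137 CPM, and at a finer clustering (Leiden resolution 2) it was 0.50 over the class. The germ cell markers summed to 3126 CPM in control and 2459 in knockout cells, and 0 of the 10 were higher in the latter. Sertoli markers summed to 148 and 200.3 CPM (13 of 16 higher), and markers of differentiating spermatogonia to 398 and 221 (4 of 10 higher). Median mitochondrial shares were 7.09% and 3.95%. The part of these in the result was not tested.

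Differentiating spermatogonia-like cells, marked by Kit, showed a small difference in the other direction, from only 108 cells in the knockout library against 1717 in the control. The summed log2 ratio was -0.17, at 5653 and 5016 CPM. With minimums of 500 UMIs and 250 genes for a cell it was 0.01, and without cluster g5, whose cells had few UMIs, it was -0.26. Of the 36 genes, 27 were lower, 3 by at least 1.5-fold, beside 8.73% of 9060 genes measured. The single gene at least 1.5-fold higher compares with 8.74% of the genes measured. The median was -0.23 over the members and -0.04 over all genes.

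Plk1 had the lowest ratio in this class, at 57.5 CPM in control and 26.5 in knockout cells, from 1538 and 36 UMIs (-1.10, -1.64 to -0.64). Nuf2 stood at 36.2 and 20.6 CPM, from 967 and 28 UMIs (-0.79, -1.41 to -0.27). Mki67 stood at 221 and 146 CPM (-0.59, -0.81 to -0.39), the third gene past 1.5-fold. Spc25, higher in undifferentiated cells as well, stood at 93.1 and 146 CPM (0.66, 0.44 to 0.86), and Cks2 at 347 and 447 (0.37, 0.24 to 0.48). Top2a stood at 463 and 335 CPM (-0.46), Cenpf at 590 and 600 (0.02), Cenpa at 293 and 249 (-0.23), Kif23 at 189 and 162 (-0.22) and Prc1 at 195 and 174 (-0.16). Ratios for single genes in this class thus rest on few knockout UMIs.

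Most control cells of the class lay in clusters g2, g3, g4, g9 and g13, with 381, 358, 318, 260 and 149 cells, and the 108 knockout cells mostly in g5 (59 cells) and g2 (36 cells). Cluster g13, with no knockout cell, had the highest summed level of any cluster given here, 10604 CPM. Within g5, with 251 control cells, the members stood at 5534 CPM in control and 6171 in knockout cells. After thinning, at least 5 members were detected in 85.2% of 1583 control cells (83.4 to 86.9) and 76.3% of 76 knockout cells (65.2 to 85.3). Markers of differentiating spermatogonia summed to 1097 CPM in control and 717 in knockout cells, and 14 of 16 markers of undifferentiated spermatogonia were higher in the latter (305 and 542 CPM). Early meiotic markers summed to 2341 and 1434 CPM (1 of 17 higher in knockout cells), and Sertoli markers to 153 and 289 (15 of 16 higher). The part of these markers in the result was not tested. Of 104 other G2 and mitosis genes measured, 1 was at least 1.5-fold higher (beside 8.74% of all genes measured) and 8 lower (beside 8.73%). Smc4, a condensin subunit, was lowest at 255 and 120 CPM (-1.08).

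**Figure D4:**
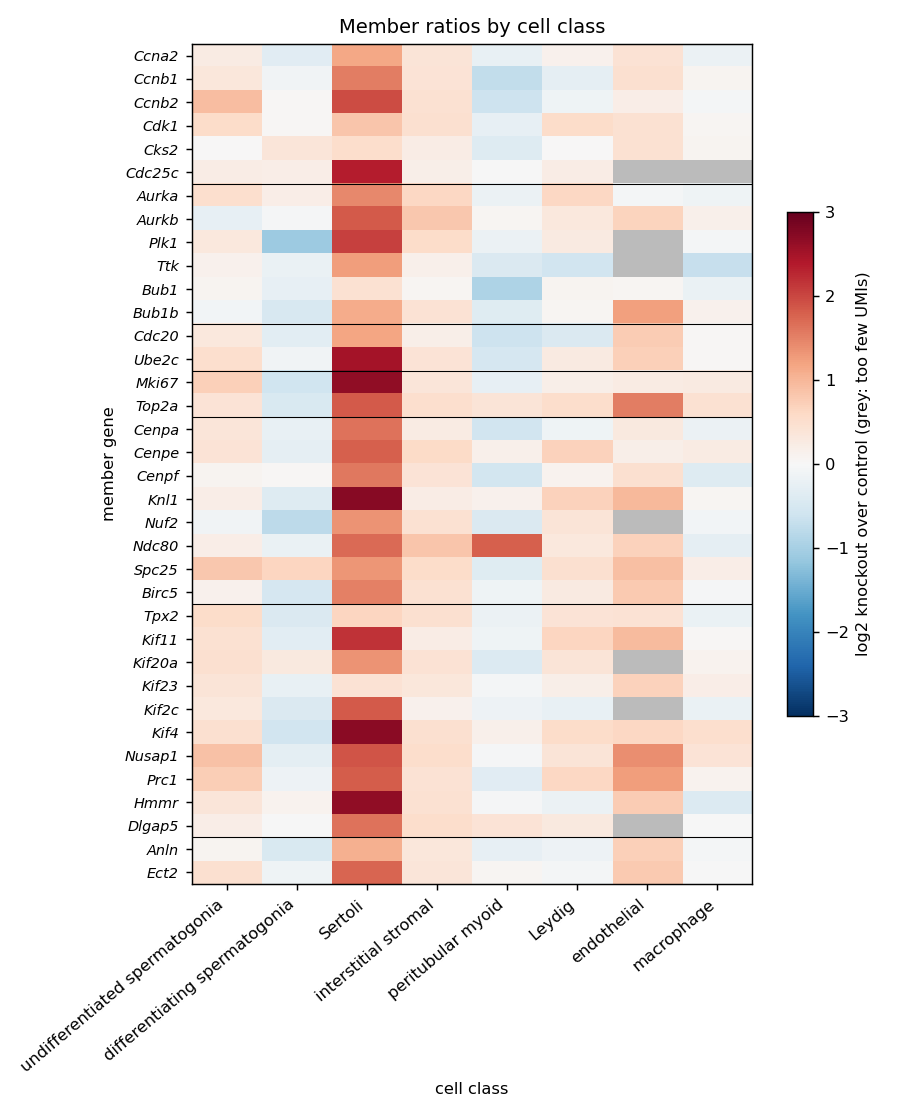
Log2 ratio, knockout over control, of each of the 36 genes (y axis, in order of role with lines between roles) in 8 cell classes (x axis), from blue for lower to red for higher. Grey marks genes with too few UMIs, 7 in endothelial and 1 in macrophage-like cells. The Sertoli column is red for all 36 genes, and Ndc80 stands out among peritubular myoid-like cells.

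Early meiotic germ cell-like cells, present almost only in the control, held all 36 members, and relative to differentiating cells the share of members called in each direction was near that of all genes. Against differentiating spermatogonia-like cells of the same library, 3 members were at least 1.5-fold higher and 21 at least 1.5-fold lower, beside 15% and 49.7% of 15360 genes measured, so the counts are no result about the members. The values below describe single members. The median log2 ratio was -0.94 over the members and -0.58 over all genes. Both values come from 1 library, and the cells of a class are not replicates.

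The 3 higher genes have roles at centromeres, on chromosomes and in the central spindle. Bub1 stood at 403 CPM in early meiotic and 122 in differentiating cells (1.73, 1.67 to 1.79). Kif23 stood at 398 and 189 CPM (1.07), and Top2a at 843 and 463 (0.86). Bub1b, the partner of Bub1 in the checkpoint, went the other way, at 44.3 and 98.1 CPM (-1.14).

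The 5 lowest ratios in this comparison were those of Aurkb, Ccnb1, Cdc25c, Plk1 and Aurka. Aurkb stood at 8.21 CPM in early meiotic and 70.3 in differentiating cells (-3.09, -3.35 to -2.86). Ccnb1 stood at 24.3 and 174 CPM (-2.84), Cdc25c at 5.06 and 35.1 (-2.79), Plk1 at 9.90 and 57.5 (-2.54) and Aurka, the spindle pole kinase, at 14.3 and 73.6 (-2.36). Cdk1 stood at 37.04 and 97.3 CPM (-1.39) and Ccnb2 at 35.2 and 82.4 (-1.22), above Ube2c at 69.8 and 210.4 (-1.59). Several kinetochore and chromosome genes lay closer to no difference, with Knl1 at 190 and 185 CPM (0.04), Cenpf at 530 and 590 (-0.15), Mki67 at 188 and 221 (-0.24) and Spc25 at 112 and 93.1 (0.27). Ccnb1 was 7.18-fold lower in the class where Bub1 was 3.31-fold higher. Cenpa, a centromere gene as well, was among the lower ones, at 103 and 293 CPM (-1.51). Cks2 stood at 120 and 347 CPM (-1.53) and Prc1 at 94.9 and 195 (-1.04).

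**Figure D5:**
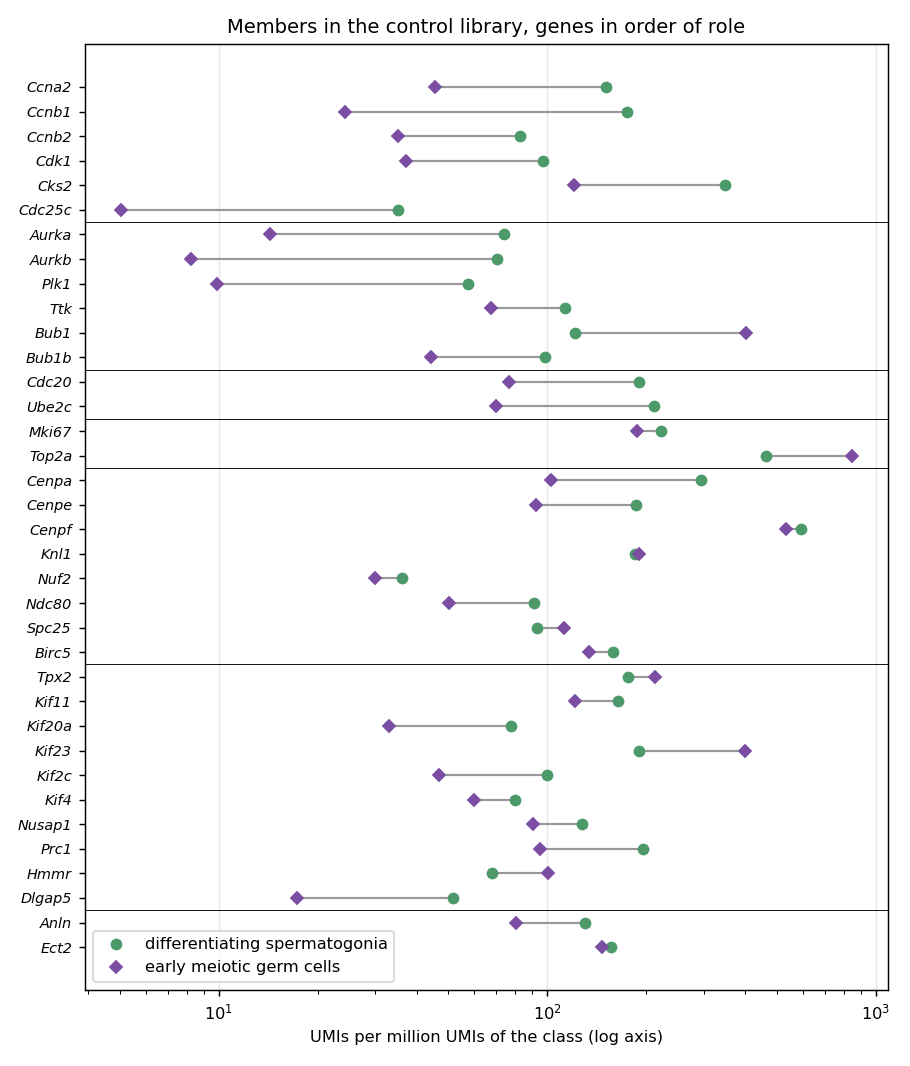
Each of the 36 genes in the control library, in order of role, with its level in CPM of the class on a log axis in differentiating spermatogonia-like cells (circles) and early meiotic germ cell-like cells (diamonds). The early meiotic point lies farthest to the right of the other for Bub1, Kif23 and Top2a, and farthest to its left for Aurkb, Ccnb1, Cdc25c, Plk1 and Aurka.

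Interstitial stromal-like cells, 1723 in the control library and 2440 in the knockout one, had small differences in 1 direction. All 36 members were higher in the knockout library, 3 by at least 1.5-fold (beside 4.09% of 14390 genes measured) and 0 lower by as much (beside 2.43%), with a median log2 ratio of 0.43 against -0.02 over all genes. The summed ratio was 0.41. Germ cell markers summed to 93.4 and 35.4 CPM (1 of 10 higher), Sertoli markers to 791 and 1013 (11 of 16 higher) and the class's own markers to 18093 and 17433, and their part in the result was not tested. Ndc80, the kinetochore's microtubule coupler, stood at 12.8 and 23.0 CPM (0.84) and Aurkb at 13.1 and 23.1 (0.81), the highest ratios, and Bub1 at 8.81 and 9.18 (0.06) and Kif2c, a microtubule depolymerase, at 7.50 and 8.24 (0.13), the lowest. When cell cycle genes were kept in the clustering the summed ratio was -0.24. In the control 150 cells with members at 4754 CPM had then joined, 115 of them from germ cell clusters with markers of other classes. Those 150 cells held germ cell markers at 2579 CPM, against 93.2 in the 1716 control cells in the class under both settings. In the knockout library 28 cells had joined, with members at 9442 CPM. After thinning, at least 5 members were detected in 3.88% of the control (3.02 to 4.92) and 5.95% of the knockout library (5.01 to 7.0). Top2a stood at 65.9 and 93.7 CPM (0.51), Cenpf at 33.0 and 44.1 (0.42), Cks2 at 80.3 and 93.9 (0.23), Kif23 at 24.2 and 30.6 (0.34), Cenpa at 36.5 and 43.0 (0.24) and Prc1 at 35.4 and 47.9 (0.44). Of the other G2 and mitosis genes, 11 of 110 were at least 1.5-fold higher (beside 4.09% of all genes measured) and 0 lower (beside 2.43%).

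Peritubular myoid-like cells, the contractile cells of the tubule wall, had 930 cells in the control library and 865 in the knockout one and a summed log2 ratio of -0.14. Beside it, the 7 myoid markers summed to 10438 and 7003 CPM (0 of 7 higher), germ cell markers to 121 and 47.4 (1 of 10), Sertoli markers to 775 and 1025 (12 of 16) and erythroid markers to 211 and 11.6 (1 of 6). Their part in the result was not tested. With each library clustered alone the ratio was -0.98. With cell cycle genes kept in the clustering it was 0.43, after 43 control cells and 36 knockout cells with members at 10010 and 8621 CPM had left the class. Of the 36 genes, 28 were lower, 4 by at least 1.5-fold (beside 5.1% of 12583 genes measured), and 1 was at least 1.5-fold higher (beside 4.95%). That gene was Ndc80, at 14.9 CPM in control and 51.9 in knockout cells (1.79, 1.47 to 2.14). A single knockout cell held 97 of its 395 UMIs (24.6%), and 5 cells held 63.8%. Bub1 was lowest, at 10.7 and 5.65 CPM (-0.92), then Ccnb1 at 20.5 and 12.2 (-0.74). Top2a was the only other member whose interval lay wholly above 0, at 97.5 and 127 CPM (0.38, 0.23 to 0.53). Dlgap5, a spindle gene, had a higher ratio than Top2a, from only 38 control and 62 knockout UMIs. Of 107 other G2 and mitosis genes measured, 0 were at least 1.5-fold higher (beside 4.95% of all genes measured) and 6 lower (beside 5.1%). Cenpf stood at 49.5 and 33.6 CPM (-0.56), Cenpa at 46.0 and 30.9 (-0.57), Cks2 at 91.6 and 70.3 (-0.38), Prc1 at 59.1 and 46.5 (-0.35) and Kif23 at 37.2 and 35.6 (-0.06).

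Leydig-like cells, the steroid producing cells of the interstitium, numbered 311 and 314 and had a summed log2 ratio of 0.22. Germ cell markers summed there to 96.4 and 20.9 CPM (0 of 10 higher, Mael at 0 in knockout cells) and Sertoli markers to 1308 and 1608 (10 of 16), and their part was not tested. With each library clustered alone the ratio was -0.34. In the knockout library 567 cells with members at 629 CPM then joined, 560 of them from the stromal class. In the control 39 cells with members at 1778 CPM left, 38 of them to the stromal class. The 272 control cells in the class under both settings stood at 1397 CPM. Of the 36 members, 5 were at least 1.5-fold higher (beside 4% of 11777 genes measured) and 0 lower (beside 3.33%). Cenpe, a kinetochore motor, had the highest ratio, at 26.8 and 43.3 CPM (0.69), with Knl1 next at 27.0 and 43.3 (0.68). Ttk, a checkpoint kinase, had the lowest, at 15.1 and 10.1 (-0.58), followed by Cdc20 at 70.2 and 51.9 (-0.44). Top2a stood at 100.5 and 144 CPM (0.52), Prc1 at 48.9 and 75.3 (0.62), Cenpf at 60.0 and 64.9 (0.11) and Cks2 at 149.6 and 150.5 (0.01). Of 109 other G2 and mitosis genes measured, 9 were at least 1.5-fold higher (beside 4% of all genes measured) and 0 lower (beside 3.33%).

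Endothelial and macrophage-like cells were few. Endothelial-like cells, 94 and 65, had a summed log2 ratio of 0.70. Of the UMIs of Top2a, 5 control cells held 56.6% and 5 knockout cells 55.0%, and of those of Cenpf 71.2% and 79.8%. Interstitial stromal markers summed to 215 and 784 CPM (9 of 9 higher), erythroid markers to 333 and 2001 (5 of 6) and germ cell markers to 156 and 48.1 (1 of 10, with 3 of 10 detected in knockout cells, where Ddx4 and Dazl were at 0). The part of these in the result was not tested. Of 29 members measured, 17 were at least 1.5-fold higher (beside 5.17% of 7239 genes measured) and 0 lower (beside 4.57%). Top2a stood at 86.9 and 253 CPM (1.54) and Nusap1 at 41.4 and 109 (1.40), the highest ratios, while Aurka (23.0 and 21.9 CPM, -0.06) and Bub1 (24.6 and 25.2 CPM, 0.05) were lowest. In 21 control cells with at least 10 members the median was 51043 UMIs, against 16870 in 15 knockout cells. Macrophage-like cells, 134 and 135, had a summed log2 ratio of 0.05 (-0.02 to 0.12), which includes 0. Germ cell markers summed there to 417 and 57.8 CPM (0 of 10 higher) and early meiotic markers to 468 and 27.0 (0 of 17 higher). The class also held lymphocyte markers, summing to 845 and 1124 CPM. All 9 of them were detected in both libraries, and 7 were higher in the knockout one. The part of these in this ratio was not tested. There 0 of 35 measured members were at least 1.5-fold higher (beside 5.64% of 9212 genes) and 1 was lower (beside 8.4%), Ttk, at 17.4 and 10.7 CPM (-0.69, -1.63 to 0.19). The other low gene was Hmmr, at 32.3 and 24.2 CPM (-0.42), and the highest were Kif4 at 23.6 and 33.7 (0.51) and Top2a at 132 and 181 (0.46). At Leiden resolution 2 the summed ratio of macrophage-like cells was 0.32. Of the other G2 and mitosis genes measured in endothelial-like cells, 21 of 65 were at least 1.5-fold higher (beside 5.17% of all genes) and 2 lower (beside 4.57%). In macrophage-like cells 5 of 94 were higher (beside 5.64%) and 6 lower (beside 8.4%). After thinning, at least 5 members were detected in 15% (8.0 to 24.7) and 27.8% (16.5 to 41.6) of endothelial-like cells, and in 17.6% (11.3 to 25.7) and 20.0% (13.4 to 28.1) of macrophage-like cells.

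Top2a was the member with the most UMIs over all called cells, and its order of classes was not that of the sum. In the control it was highest in early meiotic cells, at 843 CPM, where the sum was highest in differentiating cells. It was higher in the knockout library in each of the 8 classes compared except differentiating spermatogonia-like cells.

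Over all called cells the members were lower in the knockout library, at 1395 CPM against 2823, and the makeup of the 2 libraries differed. Of cells with at least 3 members, the control had 6386 and the knockout library 3479. Germ cells made up 63.3% of them in the control library (62.1 to 64.5) and 11.8% in the knockout one (10.7 to 12.9). Sertoli-like cells made up 22.8% in the control library (21.7 to 23.8) and 55.1% in the knockout one (53.4 to 56.8), and interstitial stromal-like cells 5.81% and 20.6%. The minimum of 3 members is not matched for depth, and these shares moved with it. At a minimum of 5 members Sertoli-like cells made up 10.7% and 46.9%, and at 10 members 2.07% and 39.5%. Germ cells made up 80.3% and 22.1% at 5 members and 91.99% and 32.1% at 10. Among all called cells, germ cells were 36.5% and 3.93%, and Sertoli-like cells 34.1% and 60.6%. The summed log2 ratio was -1.02 over all called cells and 0.58 over all somatic cells. Of the 36 genes, 28 were at least 1.5-fold lower over all called cells (beside 25.7% of 20512 genes measured) and 0 higher (beside 20%). Over all somatic cells 19 were at least 1.5-fold higher (beside 7.79%) and 0 lower (beside 6.86%), and over all germ cells 0 were higher (beside 25.1%) and 6 lower (beside 12%).

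Across the 17 combinations of named class and library with at least 50 cells, the members followed their own sum to differing degrees. Pearson correlations of log2 CPM with the sum of the others were 0.98 for Kif11, a spindle motor, and 0.97 for Knl1, Spc25, Kif4 and Cenpe, but 0.73 for Kif23 and 0.32 for Cdk1. These are descriptions, since the points share libraries. The genes compared with the sum were 16799 with at least 200 UMIs, the 36 members among them. Outside the 36, those most like the sum were Kif15 (0.99), Cdca8 (0.99), Nek2, Cep55, Ncapg, Sgo2a, Tacc3, Foxm1, Cdca2 and Cip2a (0.97). Of these 10 genes, 9 are in the list of other G2 and mitosis genes, and Cip2a is not.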

How the data were processed

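Whole testis cells of 2 libraries, 1 for each genotype, were measured by 10x 3' single-cell RNA sequencing. The deposited matrices hold raw UMI counts per gene and barcode, made by the authors in Cell Ranger, whose version 7.1.0 is given per the file headers. The submitters' processing notes name mm10 as the build. Cells (limits above) were normalised to 10000 UMIs and clustered on 2000 variable genes and 30 components (scanpy 1.11.5, leidenalg 0.10.2, resolution 1) without cell cycle genes, and clusters were named from marker lists. Raw counts were summed over each class and library. Ratios carry exact conditional 95% intervals and levels exact Poisson intervals, both from scipy 1.17.1 with numpy 2.4.6, and shares carry Clopper-Pearson intervals. The figures used matplotlib 3.10.9. A gene was called at 1.5-fold, and no test was possible with 1 library for each genotype. On simulated counts for 15693 genes of the Sertoli comparison, 99.5% of 200 genes changed 2-fold were called, and 0.723% of the unchanged genes. These counts had Poisson error alone around the pooled level, with no difference between libraries or animals. The 0.723% is thus no rate of false calls for the real libraries. Doublet scores above the control's threshold marked 4.41% of control and 2.53% of knockout cells, and all were kept. The threshold found for the knockout library itself marked 0 cells. Values are given for the 6 members with the most UMIs over all called cells. Not all 6 are given in Leydig, endothelial and macrophage-like cells. In each class values are given for the 2 highest and 2 lowest ratios. In peritubular myoid-like cells the second highest, Dlgap5, is given by its UMIs alone. The 3 highest and 3 lowest of 110 other G2 and mitosis genes were candidates for naming. The 10 genes outside the list most correlated with the sum are named as well. Other members in the text were chosen for their role after their values were seen. The 36 members and the lists were chosen with earlier results of these data known.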

Additional observations from a re-analysis of the deposited data

Results flagged for a closer look

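The summed log2 ratio of the 36 genes, knockout over control, had opposite signs in different cell classes. It was 0.33 in undifferentiated spermatogonia-like, 1.28 in Sertoli-like, 0.41 in interstitial stromal-like, 0.22 in Leydig-like and 0.70 in endothelial-like cells. It was -0.17 in differentiating spermatogonia-like and -0.14 in peritubular myoid-like cells. The sign turned under an alternative in 4 of these 7 classes: differentiating (0.0071) and peritubular myoid (0.43), both of the negative ones, and interstitial stromal (-0.24) and Leydig (-0.34). With 1 library for each genotype the difference between classes was not tested. Barcodes with 10 to 100 UMIs, which the comparisons between classes leave out, held the members at 2865 CPM among control barcodes and 1586 among those of the knockout library.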

How the results depend on the processing

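No paired analysis was possible because each genotype has 1 library and no replicate numbers are shared. Under alternatives, ratios, levels and shares were held against the counting interval of the main value, and counts of members against a 1.5-fold difference. Shares at another cut-off or after thinning measure something else and are counted with them. Of 707 values, 395 stayed within these limits, 308 moved past them, and 4 changed sign. The 4 were differentiating spermatogonia at minimums of 500 UMIs and 250 genes (0.0071), Leydig with each library clustered alone (-0.34), and interstitial stromal (-0.24) and peritubular myoid (0.43) with cell cycle genes kept in the clustering. In undifferentiated spermatogonia the summed ratio kept its sign in 13 of 13 alternatives. It was 0.38 at 500 UMIs, 0.47 at a 10% mitochondrial limit (0.43 in the main classes), 0.28 with doublets removed, 0.50 at resolution 2, 0.39 with each library clustered alone, 0.36 with 5% free RNA subtracted, 0.29 centred on the median gene, 0.39 without the 3 members with the most UMIs and 0.27 in the shared cluster. In differentiating spermatogonia it was -0.24 at the mitochondrial limit, -0.12 with doublets removed, -0.21 clustered alone, -0.13 centred, -0.23 without those 3 members and -0.26 without the cluster of few UMIs. In Sertoli-like cells it kept its sign in 13 of 13, at 1.65 at the mitochondrial limit (1.69 in the main classes), 1.14 with doublets removed, 0.37 clustered alone (13 members called, not 33), 1.68 with free RNA subtracted, 1.24 centred and 1.55 without those 3 members. The share of Sertoli-like cells with at least 3 members was, in the control and the knockout library, 40.2% and 31.1% at 2000 UMIs, 61.2% and 49.8% for at least 2 members, 13.7% and 12.8% for 5, and 2.04% and 6.38% for 10. It was 6.57% and 11.0% thinned to 2000 UMIs, 0.674% and 6.45% thinned with at least 5 members, and 21.3% and 24.2% thinned to 4000. The control share was 41.3% clustered alone, and the knockout share 31.9% at the mitochondrial limit and 31.5% at resolution 2. Sertoli-like cells made up, of cells with at least 3 members, 17.6% and 41.7% at the mitochondrial limit, 24.7% and 57.4% with doublets removed, 29.7% and 59.2% for at least 2 members and 10.7% and 46.9% for 5. They made up 26.2% of the control clustered alone and 52.4% of the knockout library at resolution 2. The shared cluster, the cluster of few UMIs, the mitochondrial limit in the main classes, at least 10 members, and thinning with at least 5 were chosen after seeing the data. The number of cells also limits precision, with 108 differentiating and 65 endothelial-like cells in the knockout library.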
